A study of Gossypium barbadense and Gossypium hirsutum with 8 samples.

Results

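Fibers of 2 cultivated tetraploid cottons were compared at 5 days post anthesis (DPA), with 1 RNA sequencing library of Gossypium barbadense set against 1 library of Gossypium hirsutum. These are 2 of the 8 libraries of the study, which holds 1 library of each species at 5, 10, 15 and 20 DPA. All 8 came from fiber total RNA, no treatment or genotype other than the species is labelled, and the labels do not say which cultivar was used or how many plants a library was drawn from. The titles of the last stage carry the number 25, whereas its sample labels give 20 DPA, the age used here. The 2 libraries were chosen by species and age alone, and samples of the species are called barbadense and hirsutum fibers below. With no replicate at 5 DPA, the difference between them has no replicate check and carries no p-value.

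A cotton fiber is a single cell that grows out from the seed coat epidermis. After initiation around flowering it elongates for weeks by turgor-driven growth of a pectin-rich primary wall, with active membrane and lipid synthesis, before it turns to laying down cellulose in the secondary wall. Fibers taken at 5 DPA are in early elongation. G. barbadense is grown for its longer and finer fiber, and G. hirsutum for its yield, and both carry an A and a D subgenome.

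Transcript levels were deposited as RPKM (reads per kilobase of transcript relative to the size of the library) for 59006 genes. The RPKM summed over these genes was 258680 in barbadense fibers and 138198 in hirsutum fibers at 5 DPA, a ratio of 1.87, although the low values showed nearly the same worth of 1 read in both libraries (relative depth 1.0 for barbadense fibers and 0.975 for hirsutum fibers). Each column was therefore also divided by its sum and multiplied by 300000; such values are called scaled RPKM here, and both forms are given. The 6 later libraries had sums from 252850 to 503585. At 5 DPA 45966 genes were above 0 in barbadense fibers and 35735 in hirsutum fibers. A scaled RPKM of 5 equals 4.31 RPKM, or about 24.6 reads of a typical gene, in barbadense fibers and 2.30 RPKM, or about 13.1 reads, in hirsutum fibers. Low levels are therefore imprecise, most of all in hirsutum fibers.

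The identifiers are not paired with gene names in the file, and 0 of them were found among the 74561 genes of a G. barbadense reference table. Genes are therefore given by identifier, in which Gh_A08G0316, for example, is gene 316 of chromosome A08 and Sca marks an unplaced scaffold. No sequences, gene roles or fiber markers could be attached for the same reason. The identifiers follow the naming of G. hirsutum genes, and a listing of 0 in barbadense fibers was not checked against that species' own sequence.

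The species labels of the 5 DPA libraries were set against genes seen in one species at 10 and 15 DPA, a check chosen after the data were seen. Of the 22 genes that reached a scaled RPKM of 5 in both G. barbadense libraries of 10 and 15 DPA and were listed at 0 in both G. hirsutum libraries, 15 had the higher scaled level in barbadense fibers at 5 DPA and 7 in hirsutum fibers. As deposited, 17 were higher in barbadense fibers and 5 in hirsutum fibers. Of the 19 genes with the opposite pattern, 0 were higher in barbadense fibers at 5 DPA, 16 were higher in hirsutum fibers, and 3 were listed at 0 in both. The 19 genes reached at most a scaled RPKM of 2.68 in barbadense fibers at 5 DPA, against up to 46.2 in hirsutum fibers. All 7 of the exceptions stood at a scaled RPKM of at least 5 in hirsutum fibers at 5 DPA. The largest was Gh_D04G0445, at 0 RPKM in barbadense fibers and 17.2 RPKM in hirsutum fibers at 5 DPA, but at 111 and 41.3 RPKM in barbadense fibers and 0 in hirsutum fibers at 10 and 15 DPA. Whether reads of another sample contribute to these 7 genes was not tested.

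At 5 DPA, 3332 of the 11357 genes that reached a scaled RPKM of 5 in either library (29.3%) were at least 4-fold apart between the species on the log2(scaled RPKM + 1) scale. Of these, 2017 were higher in barbadense fibers (17.8% of the 11357) and 1315 were lower (11.6%). The middle 50% of all 11357 genes lay between log2 differences of -1.01 and 1.57, with a median of 0.34 towards G. barbadense. In bulk fiber, a different mix of cells and a different amount of RNA per cell cannot be told apart. The genes just past the fold limit differed little from those just short of it: the nearest 50 on the higher side had log2 differences up to 2.02 inside and down to 1.97 outside, and the nearest 50 on the lower side reached -2.04 inside and -1.95 outside.

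How the 3332 genes divide between the species depended on the scaling. As deposited, 2891 of 8717 genes at 5 RPKM or more were at least 4-fold higher in barbadense fibers (33.2%) and 395 were lower (4.53%), with a median difference of 1.38. After median-of-ratios scaling the counts were 1134 higher and 1270 lower, with a median of -0.16, and after quantile normalization 1504 higher and 1516 lower, with a median of 0.03. Genes higher in barbadense fibers thus made up 60.5% of the genes apart as scaled, 47.2% with median-of-ratios factors, 49.8% after quantile normalization and 88.0% as deposited. All 1134 of the median-of-ratios genes were among the 2017, and all 395 of the genes lower as deposited were among the 1315. Both follow from the factors of the scalings and are no separate support. Both as scaled and as deposited, 1830 genes were higher and 395 lower, and the genes named below come from these, apart from those named for a run of identifiers, a limma fit or the check above.

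**Figure D1:**
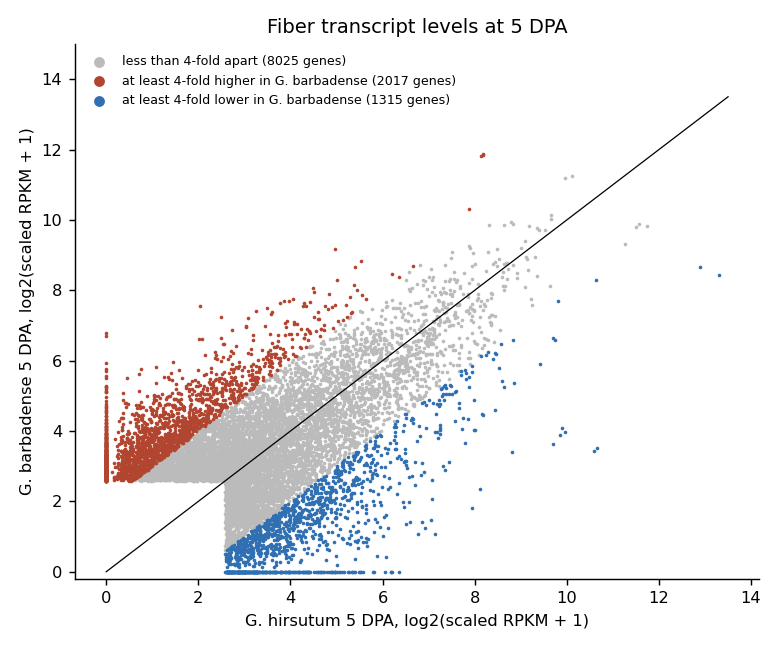
Each point is 1 of the 11357 genes that reached a scaled RPKM of 5 in either 5 DPA library, with log2(scaled RPKM + 1) in hirsutum fibers on the horizontal and in barbadense fibers on the vertical axis, and the line marks equal levels. The 2017 red genes were at least 4-fold higher and the 1315 blue genes at least 4-fold lower in barbadense fibers, and the columns of points at 0 are genes listed at 0 in the other library.

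The genes lower in barbadense fibers included the most abundant transcripts of the G. hirsutum library. The 1315 lower genes took 2.23% of the summed RPKM in barbadense fibers and 24.5% in hirsutum fibers at 5 DPA. The 2017 higher genes took 19.9% in barbadense fibers and 2.12% in hirsutum fibers. Among genes that reached a scaled RPKM of 100, 80 of 632 were higher in barbadense fibers (12.7%) and 102 were lower (16.1%). Between 5 and 10 the shares were 17.2% and 8.30% of 4856 genes. The balance between the directions thus moved towards G. hirsutum with the level of the gene.

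Of the 100 most abundant genes of each 5 DPA library, 51 were shared. The counts shared between the species were 59 at 10 DPA, 47 at 15 DPA and 70 at 20 DPA. Of the 100 most abundant in barbadense fibers, 14 were at least 4-fold higher there than in hirsutum fibers. Of the 100 most abundant in hirsutum fibers, 29 were at least 4-fold lower in barbadense fibers. Most of the abundant genes therefore stood within 4-fold between the species.

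Gh_D09G1172 on chromosome D09 was the most abundant gene of the G. barbadense library. It stood at 3261 RPKM in barbadense fibers and 133 RPKM in hirsutum fibers, which is a scaled RPKM of 3782 for barbadense against 290 for hirsutum and a ratio of 13.1. Gh_Sca222153G01, on a scaffold, had nearly the same values in every library (at 5 DPA 3176 RPKM for barbadense and 133 RPKM for hirsutum), and reads shared between near-identical copies could not be separated here. The difference of Gh_D09G1172 was seen at each later stage. Its scaled RPKM was 4379, 4467 and 5292 at 10, 15 and 20 DPA in barbadense fibers and 340, 264 and 1572 in hirsutum fibers. Over the 3 later stages, in libraries that had no part in choosing the gene, Gh_D09G1172 was higher in barbadense fibers with a log2 difference of 3.17 and an SE of 0.42 (adjusted p = 0.036, limma). Gh_A09G1166 on A09 also had nearly the same values, with 3139 RPKM in barbadense fibers and 129 RPKM in hirsutum fibers at 5 DPA, and a later difference of 3.16 (limma, adjusted p = 0.0365). No gene passed that test under several settings named with its count below, so these calls depend on them.

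Gh_D10G1142 on chromosome D10 was the most abundant gene of the G. hirsutum library. It stood at 299 RPKM in barbadense fibers and 4682 RPKM in hirsutum fibers, which is a scaled RPKM of 346 for barbadense against 10164 for hirsutum, 29.4-fold higher in hirsutum fibers. Gh_A10G1332 on A10 followed at 348 RPKM in barbadense fibers and 3512 RPKM in hirsutum fibers. The gap of both genes was narrower at later stages. For Gh_D10G1142 the log2 difference was -4.87, -2.28, -1.76 and -0.95 across the 4 stages. For Gh_A10G1332 it was -4.24, -1.88, -1.51 and -1.03. In G. barbadense Gh_D10G1142 was highest at 15 DPA, with a scaled RPKM of 4090, below the scaled 5 DPA level of G. hirsutum. As deposited that 15 DPA level was 5182 RPKM, above the 4682 RPKM of hirsutum fibers at 5 DPA. Over the 3 later stages the differences missed the threshold (limma, adjusted p = 0.0733 and 0.066).

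Among the largest ratios between nonzero values at 5 DPA were some that rest on a few reads in the lower library. Gh_A04G0108 stood at 38.4 RPKM in barbadense fibers and 0.17 RPKM in hirsutum fibers at 5 DPA, and Gh_D04G0931 at 28.3 RPKM for barbadense and 0.13 RPKM for hirsutum. The 2 genes had unlike courses. Gh_A04G0108 stood at 6.20, 2.51 and 0.59 RPKM at 10, 15 and 20 DPA in barbadense fibers, against 1.98, 1.14 and 0.57 RPKM in hirsutum fibers. Gh_D04G0931 stood at 0.26 and 0.13 RPKM at 10 and 15 DPA in barbadense fibers and again at 17.9 RPKM at 20 DPA, against 1.64, 1.5 and 13.9 RPKM in hirsutum fibers. At 20 DPA both genes were at similar levels in the species.

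In the other direction, Gh_A01G1371 stood at 0.30 RPKM in barbadense fibers and 30.6 RPKM in hirsutum fibers at 5 DPA. The levels crossed at 10 DPA, with 29.4 RPKM in barbadense fibers and 8.53 RPKM in hirsutum fibers. Gh_D06G0260 stood at 0.12 RPKM in barbadense fibers and 14.45 RPKM in hirsutum fibers at 5 DPA, and at 0.25 RPKM or less in every later library of both species. It was thus seen at more than trace level in the G. hirsutum 5 DPA library alone.

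Of the 2017 higher genes, 444 (22.0%) were listed at 0 in hirsutum fibers at 5 DPA. Most of them were not missing from G. hirsutum altogether: 393 were above 0 there at a later stage, 354 of them at 10 DPA, and 66 reached a scaled RPKM of 5. The most abundant were Gh_A04G1103 and Gh_Sca027989G01. Gh_A04G1103 stood at 93.9 RPKM in barbadense fibers at 5 DPA. The later barbadense levels were 107, 48.8 and 0 RPKM, in order of age. In hirsutum fibers its level was 0, 9.80, 0 and 1.69 RPKM, in order of age from 5 DPA. Gh_Sca027989G01 had barbadense levels of 88.3, 1.46, 53.3 and 21.7 RPKM from 5 to 20 DPA, against hirsutum levels of 0, 7.19, 0 and 1.24 RPKM. Its barbadense level at 10 DPA was thus far below those of the stages on either side.

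Of the 1315 lower genes, 249 (18.9%) were listed at 0 in barbadense fibers at 5 DPA, and 197 of these were above 0 there later. Gh_A13G0593 and Gh_D13G1678 were the most abundant. Gh_A13G0593 stood at 0 in barbadense fibers and 37.5 RPKM in hirsutum fibers at 5 DPA, and stayed between 1.28 and 2.24 RPKM in barbadense fibers later. Gh_D13G1678 stood at 0 in barbadense fibers and 33.3 RPKM in hirsutum fibers at 5 DPA. At 10 DPA it stood at 99.8 RPKM in barbadense fibers and 17.3 RPKM in hirsutum fibers, and at 20 DPA at 9.84 RPKM for barbadense and 46.5 RPKM for hirsutum. The same gene was therefore higher in either species, depending on the stage.

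The later libraries show what became of the genes apart at 5 DPA. From 5 to 20 DPA the median scaled RPKM of the 2017 higher genes was 12.0, 5.02, 3.35 and 0.537 in barbadense fibers. In hirsutum fibers it was 0.912, 2.45, 0.783 and 0.563. The medians were thus nearly equal at 20 DPA, where both species were low. The 1315 lower genes had a median of 1.28, 2.60, 2.42 and 1.31 in barbadense fibers and 15.7, 4.50, 5.90 and 2.25 in hirsutum fibers. The 5 DPA values chose these genes, so the distance between the species at 5 DPA is a description and no finding.

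**Figure D2:**
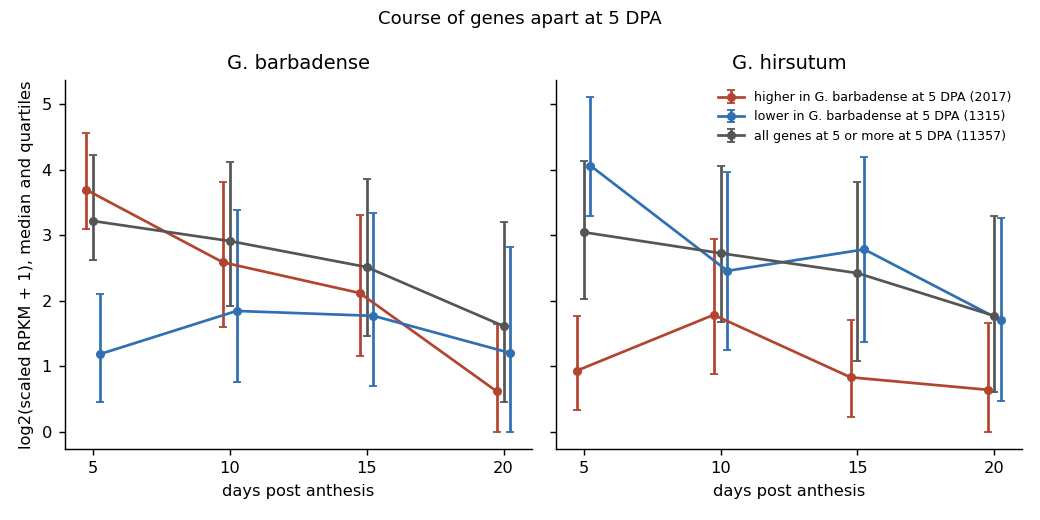
The points are medians of log2(scaled RPKM + 1) over genes at 5, 10, 15 and 20 DPA, the bars run from the lower to the upper quartile, and the panels show G. barbadense and G. hirsutum, 1 library per point. Genes higher in barbadense fibers at 5 DPA (red, 2017) had their highest hirsutum median at 10 DPA, and genes lower in barbadense fibers (blue, 1315) stood below those of G. hirsutum at all 4 stages.

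Most of the differences kept their direction at 10 and 15 DPA, and fewer did at 20 DPA. Of the 2017 genes higher in barbadense fibers at 5 DPA, 71.6% were higher at 10 DPA, 79.4% at 15 DPA and 35.6% at 20 DPA, beside 53.5%, 49.0% and 39.6% of all 11357 genes. Of the 1315 lower genes, 66.2% were lower at 10 DPA, 69.6% at 15 DPA and 55.2% at 20 DPA, beside 45.8%, 49.9% and 50.6% of all genes. The median log2 difference of the higher genes was 0.82, 1.10 and 0.00 at the 3 later stages, and that of the lower genes -0.44, -0.64 and -0.05. At 20 DPA 405 of the 2017 genes were equal in both libraries, and 637 of them were listed at 0 in barbadense fibers and 603 in hirsutum fibers. After quantile normalization 64.7% of the genes higher at 5 DPA were higher at 20 DPA, beside 57.3% of all genes. Quantile normalization gave genes listed at 0 a value above 0 set by their rank, slightly larger in barbadense fibers at 20 DPA. Equal genes fell from 405 to 1, so genes at 0 in both libraries were counted as higher. The 64.7% is thus no count of kept directions. As deposited, 77.0% and 81.3% of the genes higher at 5 DPA were higher at 10 and 15 DPA, beside 71.0% and 66.9% of all genes.

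A difference of 4-fold or more was seldom called again. A call at a later stage also needed a scaled RPKM of 5 in the higher library of that stage. By 20 DPA the median of the 2017 genes was 0.537 in barbadense fibers, and that of the 1315 genes 2.25 in hirsutum fibers. A lost call is therefore not always a lost species difference. At 10 DPA 319 of the 2017 higher genes (15.8%) were still at least 4-fold higher, at 15 DPA 465 (23.1%) and at 20 DPA 16 (0.793%). The shares of all genes reaching a scaled RPKM of 5 at those stages were 10.9% at 10 DPA, 18.2% at 15 DPA and 1.95% at 20 DPA. Among the 1315 lower genes, 106 (8.06%), 205 (15.6%) and 78 (5.93%) were still at least 4-fold lower, beside 5.56%, 11.2% and 6.66%. Those shares count genes selected at each stage for their level. Over the same 11357 genes followed from 5 DPA, 6.34%, 10.9% and 0.608% were at least 4-fold higher at 10, 15 and 20 DPA, and 3.23%, 5.42% and 1.74% at least 4-fold lower.

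**Figure D3:**
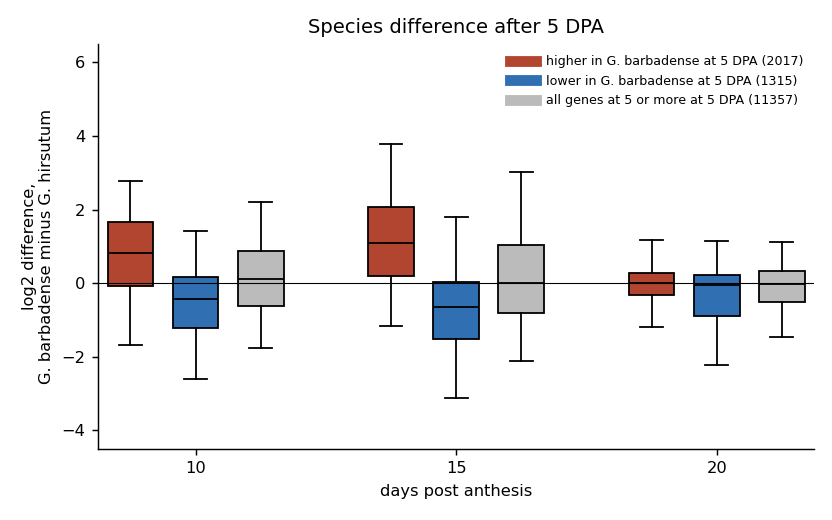
Log2 differences in scaled RPKM (G. barbadense minus G. hirsutum) at 10, 15 and 20 DPA are drawn as boxes from the lower to the upper quartile with the median as a line and whiskers from the 5th to the 95th percentile over genes. Genes higher in barbadense fibers at 5 DPA (red) had medians of 0.82, 1.10 and 0.00, genes lower (blue) -0.44, -0.64 and -0.05, and all 11357 genes (grey) 0.10, 0.00 and -0.01.

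Just 4 genes were at least 4-fold higher in barbadense fibers at all 4 stages and 25 were lower, 4 and 15 of them also 4-fold apart at 5 DPA as deposited. Genes that had fallen to low levels in both species could not reach 4-fold on the log2(scaled RPKM + 1) scale. Gh_A06G0930 and Gh_D05G2546 were the most abundant of the 4. Gh_A06G0930 had log2 differences of 4.42, 4.92, 7.29 and 2.01 at the 4 stages (limma over the later 3 stages, adjusted p = 0.0956). Gh_D05G2546 stood at 19.4 RPKM in barbadense fibers and 0 in hirsutum fibers at 5 DPA, and the later stages alone gave a difference of 3.57 (SE 0.49; limma, adjusted p = 0.0376). Of the 15, Gh_D04G0857 stood at 2.31 RPKM in barbadense fibers and 21.3 RPKM in hirsutum fibers at 5 DPA, and Gh_D02G1619 at 1.46 RPKM for barbadense and 19.9 RPKM for hirsutum. The later difference of both missed the threshold (-4.05 and -3.64; limma, adjusted p = 0.0658 and 0.0693).

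A smaller group stood on opposite sides at different stages. At a later stage 90 of the 2017 higher genes (4.46%) were at least 4-fold lower in barbadense fibers, and 71 of the 1315 lower genes (5.40%) at least 4-fold higher. Stage by stage such genes were mostly no more frequent than among all 11357, again with a scaled RPKM of 5 required. Of the higher genes 2.88%, 1.49% and 0.744% were at least 4-fold lower at 10, 15 and 20 DPA, beside 3.23%, 5.42% and 1.74% of all genes. Of the lower genes 2.81%, 3.65% and 0.837% were at least 4-fold higher, beside 6.34%, 10.9% and 0.608%. Gh_A05G1452 stood at 496 RPKM in barbadense fibers and 13.9 RPKM in hirsutum fibers at 5 DPA, but 20 DPA fibers of G. barbadense had 1.44 RPKM and those of G. hirsutum 8.37 RPKM. Gh_A01G0774 stood at 358 RPKM in barbadense fibers and 46.3 RPKM in hirsutum fibers at 5 DPA, but 15 DPA fibers of G. barbadense had 48.6 RPKM and those of G. hirsutum 150 RPKM. The hirsutum level of Gh_A01G0774 at 10 DPA, 340 RPKM, came close to the barbadense level at 5 DPA.

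Gh_A11G2616 and Gh_D11G2930 had like courses with the order of the species turned round. Gh_A11G2616 stood at 82.6 RPKM in barbadense fibers and 392 RPKM in hirsutum fibers at 5 DPA. By 10 DPA the barbadense level was 787 RPKM and the hirsutum level 53.9 RPKM, and by 20 DPA they were 25.7 RPKM for barbadense and 106 RPKM for hirsutum. Gh_D11G2930 was at similar levels to it in every library, with 85.3 RPKM in barbadense fibers and 384 RPKM in hirsutum fibers at 5 DPA. In G. hirsutum both genes were high at 5 and 15 DPA and low between them, with 53.9 and 58.9 RPKM at 10 DPA.

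**Figure D4:**
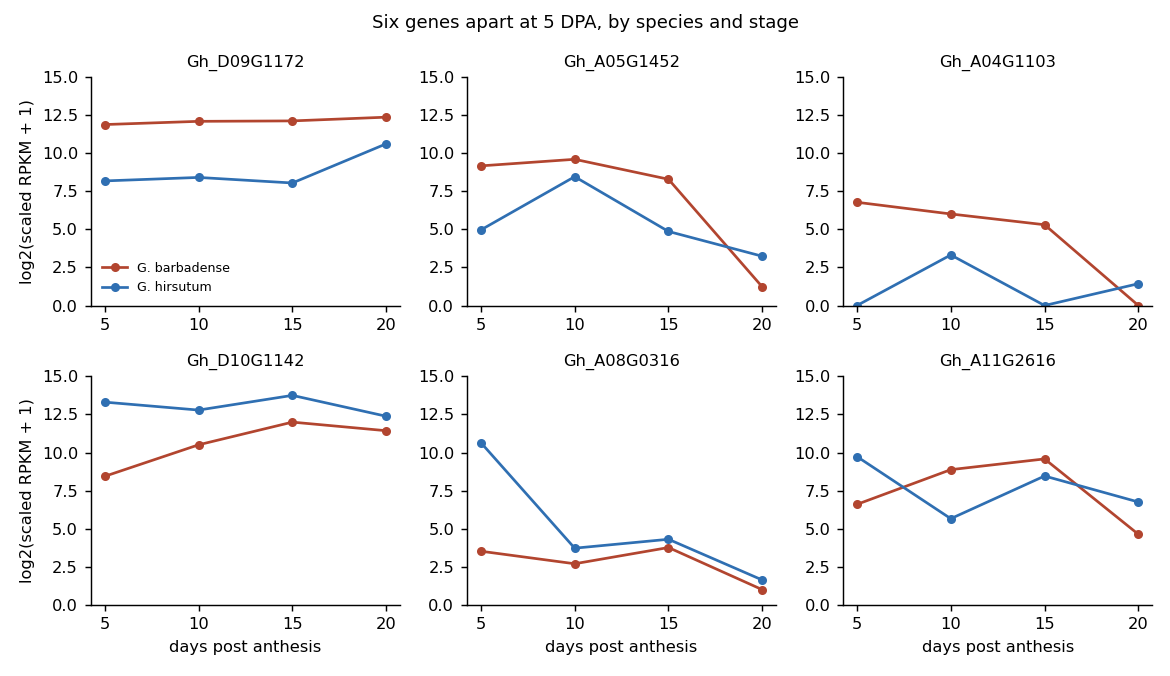
Levels of 6 genes as log2(scaled RPKM + 1) at 5, 10, 15 and 20 DPA, G. barbadense in red and G. hirsutum in blue, 1 library per point. Gh_D09G1172 stood higher in barbadense fibers and Gh_D10G1142 lower at all 4 stages, Gh_A08G0316 was apart at 5 DPA by -7.13 on the log2 scale and by at most -1.02 later, and Gh_A05G1452, Gh_A04G1103 and Gh_A11G2616 crossed.

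The timing of the highest level differed between the sets. For the 2017 genes higher in barbadense fibers at 5 DPA, the highest of the 3 later hirsutum levels fell at 10 DPA in 76.7% of the 1955 genes seen there, beside 55.2% of all genes. For the 1315 genes lower in barbadense fibers, the highest later barbadense level fell at 10 DPA in 39.6%, at 15 DPA in 32.7% and at 20 DPA in 27.7%, beside 56.6%, 22.4% and 21.1% of all genes. The higher species leaned the same way. For the 2017 genes the highest later barbadense level fell at 10 DPA in 68.9%, beside 56.6% of all genes. For the 1315 genes the highest later hirsutum level fell at 10 DPA in 36.3%, beside 55.2%. The lean in timing was thus not particular to the lower species. As deposited the share of 76.7% was 79.7%, beside 68.6% of all genes, so that the excess was smaller on that scale.

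At some later stage, on the scaled values, G. hirsutum reached at least 50% of the 5 DPA level of G. barbadense for 374 of the 2017 genes (18.5%), 313 of them at 10 DPA, beside 59.9% of the 4374 genes that were higher in barbadense fibers by less than 4-fold. Among the 1315 lower genes, G. barbadense later reached 50% of the 5 DPA level of G. hirsutum for 403 genes (30.6%), spread over 250 at 10 DPA, 236 at 15 DPA and 186 at 20 DPA, beside 72.8% of the 3651 genes lower by less than 4-fold. The 5 DPA values chose these sets and also set the level to be reached. Genes less than 4-fold apart started nearer to it, so the gap between the shares is no finding about later change. As deposited the shares were 36.0% of the 2891 higher genes and 45.8% of the 395 lower genes, with median-of-ratios factors 28.8% of 1134 and 42.4% of 1270, and after quantile normalization 26.1% of 1504 and 40.4% of 1516. How many genes kept their level within the higher species also depended on the scaling. At 10 DPA 824 of the 2017 genes (40.9%) were still at 50% or more of their 5 DPA level in barbadense fibers, and 411 of the 1315 (31.3%) in hirsutum fibers. As deposited these shares were 70.5% in barbadense fibers and 46.1% in hirsutum fibers, and with median-of-ratios factors 48.4% in barbadense fibers and 37.5% in hirsutum fibers.

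Early-elongation genes, taken here as genes whose scaled RPKM was highest at 5 DPA, made up most of both sets. In barbadense fibers 79.3% of the 2017 higher genes were highest at 5 DPA, beside 48.5% of all genes seen there. In hirsutum fibers 76.4% of the 1315 lower genes were, beside 43.8%. As deposited the barbadense share was 52.5% of 2891 genes, beside 29.4%, and the hirsutum share 58.0% of 395, beside 14.45%. With median-of-ratios factors they were 64.1% of 1134, beside 29.2%, and 70.0% of 1270, beside 37.6%. The shares thus depended on the scaling, and each stayed above that of all genes. Choosing genes for a high 5 DPA level in the same species favours such an excess under any scaling, so it is no finding. Of the 11357 genes, 2525 (22.2%) were highest at 5 DPA in both species, 3007 (26.5%) in barbadense fibers alone and 2481 (21.8%) in hirsutum fibers alone. In these counts a gene listed at 0 in all 4 libraries of a species was taken as highest at 5 DPA there. That holds for 51 of the 2017 genes in hirsutum fibers and for 52 of the 1315 genes in barbadense fibers. Of the summed RPKM, the 2525 shared early genes held 16.8% at 5 DPA and 3.29% at 20 DPA in barbadense fibers, and 16.1% and 3.05% in hirsutum fibers. Among them 291 (11.5%) were at least 4-fold higher in barbadense fibers and 215 (8.52%) lower, below the shares of all genes (17.8% and 11.6%). The 2525 and these counts are upper limits, since they include genes listed at 0 throughout the other species. The genes early in barbadense fibers alone took 26.3% of the summed RPKM there at 5 DPA, against 9.36% in hirsutum fibers, and the genes early in hirsutum fibers alone took 11.9% in barbadense fibers and 28.9% in hirsutum fibers. The 5 DPA values enter both the class and the fold, so no test applies to these counts.

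The most abundant early genes apart between the species were Gh_Sca125018G01 and Gh_A01G0774 in barbadense fibers and Gh_A08G0316 and Gh_D08G0414 in hirsutum fibers. Gh_Sca125018G01 had barbadense levels of 395, 298, 120 and 31.2 RPKM from 5 to 20 DPA, against hirsutum levels of 20.7, 118, 52.5 and 44.9 RPKM. Its log2 difference was 3.32 at 5 DPA and -0.63 at 20 DPA. Gh_A08G0316 stood at 9.02, 9.19, 15.9 and 1.07 RPKM in barbadense fibers and at 740, 13.3, 15.8 and 2.08 RPKM in hirsutum fibers, so that its scaled level at 5 DPA was 154-fold higher in hirsutum fibers. Its log2 difference was -7.13 at 5 DPA and -1.02, -0.54 and -0.64 later. Gh_D08G0414 behaved likewise, with 8.42 RPKM in barbadense fibers and 707 RPKM in hirsutum fibers at 5 DPA.

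These 2 genes lie in runs of consecutive identifiers that share the pattern, found after the data were seen. On A08 the run goes from Gh_A08G0314 to Gh_A08G0317 and on D08 from Gh_D08G0412 to Gh_D08G0415, 4 identifiers each. The A08 genes stood at 9.77, 12.6, 9.02 and 2.19 RPKM in barbadense fibers and at 385, 458, 740 and 113 RPKM in hirsutum fibers at 5 DPA. The D08 genes stood at 13.7, 12.0, 8.42 and 3.50 RPKM in barbadense fibers and at 436, 428, 707 and 127 RPKM in hirsutum fibers. At 10 DPA the hirsutum level of the 8 genes lay between 3.94 and 72.7 RPKM. The identifiers that follow each run did not share the pattern. Gh_A08G0318 stood at 0.17 RPKM in both species and Gh_D08G0416 at 0.17 RPKM for barbadense and 0 for hirsutum. Whether the 8 genes are near-identical copies that share reads could not be seen from these files.

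**Figure D5:**
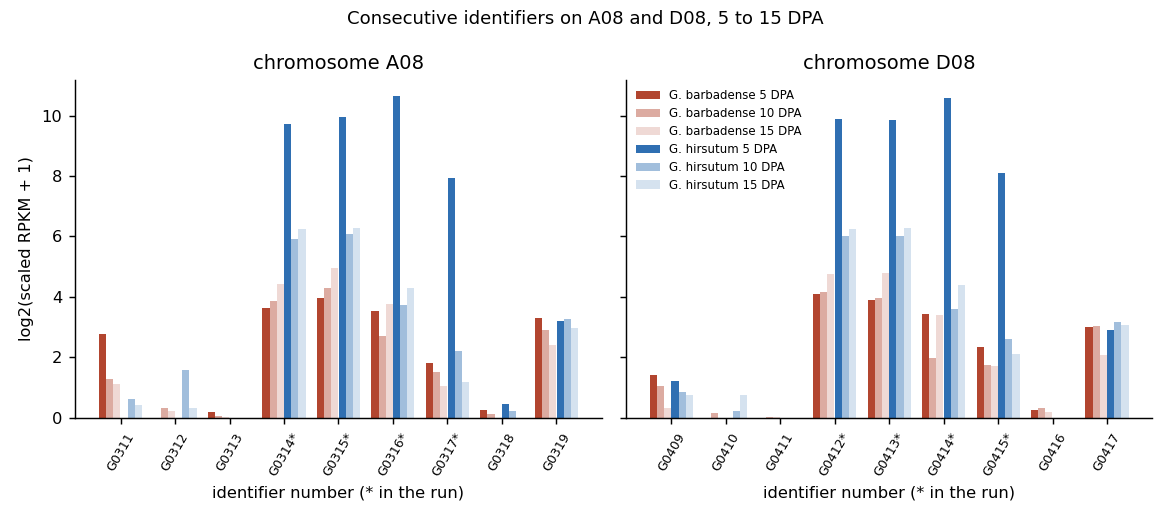
Bars give log2(scaled RPKM + 1) of each identifier in the A08 and D08 runs (marked *) and of listed neighbours on either side, at 5, 10 and 15 DPA, with G. barbadense in red and G. hirsutum in blue and later stages paler. In all 8 genes of the runs the 5 DPA bar of G. hirsutum is the tallest.

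Across the genome, 7 runs of 3 or 4 consecutive identifiers, 24 genes in all, were lower in barbadense fibers, and 2 runs of 3 were higher. Another run of 4, Gh_D13G0578 to Gh_D13G0581, was listed at 0 in barbadense fibers and stood at 9.20 to 19.1 RPKM in hirsutum fibers at 5 DPA. At 10 DPA the same genes stood at 67.9 to 269 RPKM in barbadense fibers and at 1.28 to 7.06 RPKM in hirsutum fibers. Whether reads of another sample contribute to the hirsutum levels of this run at 5 DPA was not tested. In the 3 genes Gh_D11G0591 to Gh_D11G0593 the 5 DPA level was 61.5 to 65.2 RPKM in barbadense fibers and 4.82 to 6.13 RPKM in hirsutum fibers. Among lower genes with an adjacent identifier that also reached a scaled RPKM of 5, 26.4% of 454 had a neighbour lower as well, beside 13.3% of 3692 such genes in all. For the higher genes the share was 20.8% of 615, beside 18.2%.

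Both subgenomes held the contrast alike. Of the A genes that reached a scaled RPKM of 5, 17.1% were higher and 10.9% lower in barbadense fibers, and of the D genes 17.0% and 12.1%. Unplaced scaffolds held 175 higher genes among 550 (31.8%) and 67 lower genes (12.2%). Single chromosomes ranged from 12.97% (D13) to 20.9% (A12) for the higher genes and from 8.85% (A03) to 15.9% (A02) for the lower genes. Within 10% of each other in every library, at 1 RPKM or more, were 21 A and D pairs among the higher genes (40 genes) and 14 pairs among the lower (23 genes). Reads of such pairs may have been split between the copies by the counting.

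The 6 later libraries allowed a test that owes nothing to the 5 DPA values. Ages took the place of replicates in it, since each age holds 1 library of each species. Over 10, 15 and 20 DPA, 45 of 17861 genes differed between the species (limma with a term for stage, adjusted p under 0.05 by Benjamini-Hochberg), 15 higher in barbadense fibers (0.084%) and 30 lower (0.168%). Of the 2017 genes higher at 5 DPA, 1617 were tested, and 6 were higher and 0 lower. The 6 include Gh_D09G1172 and its 2 near-equals, which are not independent counts if they share reads. Of the 1315 lower genes, 1083 were tested, and 17 were lower and 2 higher. At an unadjusted p under 0.05 (limma), 412 of the 2017 genes (20.4%) were higher and 53 (2.63%) lower. Of the 1315 genes 43 (3.27%) were higher and 262 (19.9%) lower. Among all 11357 genes, of which 10325 were tested, 9.77% were higher and 7.80% lower. These shares count untested genes as not called. Over all 17861 genes tested the shares were 9.27% higher and 8.03% lower. The count of 45 was 0 with median-of-ratios factors, with quantile normalization, without the stage factor, and without any 1 of the 10 or 20 DPA libraries, and was 257 without the G. barbadense library of 15 DPA and 102 without that of G. hirsutum.

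The 2 genes that went against their 5 DPA difference had the lowest p-values of that fit. Gh_D08G1025 stood at 2.87 RPKM in barbadense fibers and 11.04 RPKM in hirsutum fibers at 5 DPA. Later it stood at 64.3, 87.6 and 142 RPKM in barbadense fibers, against 0, 0.71 and 1.24 RPKM in hirsutum fibers (log2 difference 5.48, SE 0.44; limma, adjusted p = 0.0132). Gh_D13G1380 stood at 2.69 RPKM in barbadense fibers and 13.8 RPKM in hirsutum fibers at 5 DPA, and later at 50.7, 83.5 and 111 RPKM in barbadense fibers and 0 at every stage in hirsutum fibers (log2 difference 5.91, SE 0.49; limma, adjusted p = 0.0132). As deposited, the 5 DPA ratio of Gh_D08G1025 was 3.85 in favour of G. hirsutum. Gh_D13G1380 is among the 7 exceptions of the check of species labels, where reads of another sample were not tested. Gh_D08G1025 had a like course but was outside that check, with 0.71 RPKM in hirsutum fibers at 15 DPA. The same doubt applies to its 5 DPA level.

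Among genes lower in barbadense fibers over the later stages, Gh_D08G1946 and Gh_Sca004746G01 had the lowest p-values. Gh_D08G1946 was listed at 0 in all 4 G. barbadense libraries and stood at 18.1 RPKM in hirsutum fibers at 5 DPA and at 16.5 to 25.4 RPKM later (limma, adjusted p = 0.0248). Gh_Sca004746G01 stood at 0.41 RPKM in barbadense fibers and 3.76 RPKM in hirsutum fibers at 5 DPA, and later at up to 0.41 RPKM for barbadense and 18.6 to 19.2 RPKM for hirsutum (limma, adjusted p = 0.0248). Their direction at 5 DPA was thus that of the later stages.

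Whether the 5 DPA difference of a gene stood apart from its later differences was fitted in 20027 genes. The spread came from the later stages alone, so the lone 5 DPA libraries are assumed to vary like the later ones, and the 5 DPA ratios themselves remain without a replicate check. In this fit 0 genes passed (0.0%; limma, lowest adjusted p = 0.187), and at an unadjusted p under 0.05 there were 1417 with a difference shifted towards G. barbadense at 5 DPA (7.08%) and 1035 shifted towards G. hirsutum (5.17%). The balance of these unadjusted counts turned with the scaling. It was 664 towards G. barbadense and 1062 towards G. hirsutum with median-of-ratios factors, 1081 towards G. barbadense and 1174 towards G. hirsutum after quantile normalization, and 1234 towards G. barbadense and 422 towards G. hirsutum as deposited, each with 0 genes past the adjusted threshold. The lowest p-values were those of Gh_D13G1380 and Gh_D08G1025 on the hirsutum side. On the barbadense side they were those of Gh_Sca079112G01, with 38.2 RPKM in barbadense fibers and 0 in hirsutum fibers at 5 DPA, and Gh_A04G0960, with 2.54 RPKM for barbadense and 0 for hirsutum. Gh_A04G0960 stood at 4.88 RPKM in barbadense fibers and 61.8 RPKM in hirsutum fibers at 10 DPA. The fit had 2 residual degrees of freedom. Gh_D13G1380 and Gh_D08G1025 also had the lowest p-values of the fit over the later stages. Both fits use the same later values, so the rank of these genes here adds no separate support. Gh_D13G1380 is among the 7 exceptions of the check of species labels.

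As a description over all 59006 genes, which are not independent replicates and share the length and read steps of their identifiers, the libraries were ranked by correlation. The 5 DPA library of G. barbadense correlated with that of G. hirsutum at a Spearman's rho of 0.60. It stood closer to G. barbadense at 10 DPA (0.73) and to G. hirsutum at 10 DPA (0.65). The G. hirsutum library of 5 DPA was likewise closer to G. barbadense at 10 DPA (0.66) and at 15 DPA (0.62) than to G. barbadense at 5 DPA. The species pairs of the same age stood at 0.60, 0.74, 0.61 and 0.71 at 5, 10, 15 and 20 DPA. Over the 11357 genes the species difference at 5 DPA correlated with that at 10 DPA at 0.32, at 15 DPA at 0.39 and at 20 DPA at 0.10, and these comparisons share no library.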

How the data were processed

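The deposited file gives RPKM made by the authors, with 2 decimals, in 8 columns matched to samples by title. Cutadapt, Bowtie2 and edgeR are listed in the submitters' processing notes. The sources used here do not give the build, the annotation or how multiply mapped reads were treated. Columns were divided by their sum and multiplied by 300000. Genes counted as apart at 5 DPA when at least 4-fold apart on log2(value + 1), a scale that understates changes of low genes, with at least 5 in the higher library. The worth of 1 read (median 0.175 RPKM) was read from 16466 of 40389 genes (40.8%), those with low values in whole steps to within 0.15 reads, and counting error is the only error known for 1 library.

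The later species difference (species and stage as factors, 6 libraries, genes with a mean of at least 1) and the 5 DPA difference minus the later one (8 libraries) were fitted with limma 3.58.1 in R 4.3.3 (eBayes with a trend, two-sided, Benjamini-Hochberg adjustment), each with 2 residual degrees of freedom and tested on simulated data. With 1 library of each species at each age, the p-values rest on how the species difference varied between the later ages. No spread between replicates enters them, and technical differences between libraries are mixed into that variation. Other steps used Python 3.11.15, pandas 2.3.3 and numpy 2.4.6. Genes were named by rule, 2 per direction in each class (most abundant, largest ratio, listed at 0, highest at 5 DPA, apart the same way at all stages, apart the other way later, lowest p). The classes, thresholds and genes were chosen with earlier results of these data known, and runs, pairs, abundant genes and the check of species labels after the values were seen.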

Additional observations from a re-analysis of the deposited data

Results flagged for a closer look

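Several named genes were at least 4-fold apart one way at 5 DPA and the other way later, with 1 library of each species on either side. They were chosen with the 5 DPA values, and the contrast between 5 DPA and a single later stage was not tested. Gh_A11G2616 and Gh_D11G2930 had log2 differences (G. barbadense minus G. hirsutum) of -3.14 and -3.06 at 5 DPA and of 3.22 and 3.21 at 10 DPA. Gh_D08G1025 had -2.53 at 5 DPA and 5.30, 5.25 and 5.88 at 10, 15 and 20 DPA. For Gh_D13G1380 the values were -2.91 and then 4.96, 6.06 and 6.70. Gh_D13G1380 is among the 7 exceptions of the check of species labels. Reads of another sample were not tested for it or for the other genes listed here. On the other side Gh_Sca027989G01 stood at 6.69 at 5 DPA and -2.02 at 10 DPA, and Gh_A01G0774 at 2.04 at 5 DPA and -2.18 at 15 DPA. Gh_A05G1452 stood at 4.21 at 5 DPA and -2.01 at 20 DPA, and Gh_Sca079112G01 at 5.50 at 5 DPA and -2.41 at 15 DPA.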

How the results depend on the processing

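No paired analysis was possible because the labels give no replicate numbers and each group holds 1 library. The term for stage compares the species within each age. The number of genes at least 4-fold higher in G. barbadense at 5 DPA (2017) was 1134 with median-of-ratios factors and 1182 at a minimum of 10, and the number lower (1315) was 395 as deposited. In the other alternatives for these counts they stayed within 1.5 times. The share of higher genes still higher at 20 DPA (35.6%) was 64.7% after quantile normalization, which counted genes at 0 in both libraries as higher. The 45 genes of the later species difference became 0 with median-of-ratios factors (1682 higher and 1160 lower at an unadjusted p under 0.05), 0 with quantile normalization (1617 and 1649), 8 with a pseudocount of 0.1, 101 with no filter, 0 without the stage factor, and 0 to 257 when 1 library was left out. The fit of 5 DPA against later stages gave 0 genes in all alternatives except without a filter, where it gave 3228. Of these 3228, 2519 were listed at 0 in all 6 later libraries, where the residual spread is 0 by construction. The 5 DPA direction of the 23 genes named by abundance, ratio or course was kept in the 4 alternatives run for them. Only quantile normalization could have turned it. Median-of-ratios factors differed 2.22-fold between the 5 DPA libraries and the sums 1.87-fold, which is too alike to turn a 4-fold difference. The genes were chosen to be 4-fold apart as deposited too, and a change of pseudocount cannot turn a direction. Genes named for the limma fits, runs of identifiers or the label check were not included.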
